A study of Mus musculus with 2 samples.

Results

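The MHC class I presentation genes followed here are 10 of the 32285 genes listed in the files: H2-K1, H2-D1, B2m, Tap1, Tap2, Tapbp, Psmb8, Psmb9, Psmb10 and Nlrc5. They were taken as a fixed list of symbols, and all 10 were found, each under 1 symbol only. The data are droplet single-cell transcriptomes of live mouse thymic epithelial cells, sorted for the surface protein EPCAM. There is 1 library titled Foxp1 KO and described as Cre+, and 1 titled Foxp1 WT and described as Cre-. The genotype field reads KO for both, so the groups were taken from the title and the description. With a single library on each side no difference has a replicate check and no test was possible. The sources used here give neither the Cre driver, the deleted part of Foxp1 and the age and strain of the mice, nor how many animals were pooled in a library.

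MHC class I molecules are built from a heavy chain, a light chain and a short peptide, and they show CD8+ T cells what proteins a cell is making. Proteasomes cut cytosolic proteins into peptides, and cells under interferon swap the constitutive catalytic subunits for immunoproteasome subunits. The TAP transporter carries the peptides into the endoplasmic reticulum, where tapasin helps to load them. In the thymus, epithelial cells use this route to display self-peptides to developing T cells, and cortical epithelial cells carry a proteasome subunit of their own, Psmb11.

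The Foxp1 count over the whole gene goes against the labels, at 405 CPM in epithelial cells of the library labelled KO and 252 CPM in those of the library labelled WT (log2 ratio 0.68 [0.64, 0.73]). CPM are counts of unique molecular identifiers (UMIs), scaled to the same total in every group of cells. Counts over the whole gene cannot show the loss of a part of it. The words KO-labelled and WT-labelled are used below for this reason, and all directions depend on them. After filtering, 3584 KO-labelled and 4037 WT-labelled cells remained, of which 3264 KO-labelled and 3886 WT-labelled cells fell in epithelial clusters. The medians were 5097.5 UMIs per cell in the KO-labelled and 6267 in the WT-labelled library. Epcam was detected in 61.3% or more of the cells of each cluster behind the named types compared below, and in 44.0% and 50.7% of the cells of clusters 4 and 11, which are unnamed and low in RNA. The libraries share 5 cell barcodes, 3 of them among kept cells.

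Of the 10 genes, 7 lie on mouse chromosome 17, between 33915899 and 35267499 on the build mm10, a stretch of 1352 kb in the mouse MHC region. Tapbp (33915899 to 33929292, plus strand) and H2-K1 (33996017 to 34000347, minus strand) stand at its start, and H2-D1 (35262730 to 35267499, plus strand) at its end. Between them, Psmb9, Tap1, Psmb8 and Tap2 follow each other within 34.3 kb, from 34181987 to 34216321. Psmb9 (34181987 to 34187764, minus strand) and Tap1 (34187553 to 34197225, plus strand) are read in opposite directions and overlap at their annotated starts. Psmb8 spans 34197721 to 34201454 and Tap2 34203527 to 34216321, both on the plus strand. B2m lies on chromosome 2 (122147686 to 122153083, plus strand). Psmb10 (105935735 to 105938444, minus strand) and Nlrc5 (94434356 to 94527272, plus strand) lie on chromosome 8.

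The count of a class I heavy chain gene can be affected by its near relatives. Of the 60-base windows of their transcripts, 9.10% in H2-D1 and 3.0% in H2-K1 also occur in transcripts of another gene. The share was 2.46% in Tapbp, 0.499% in Tap1 and 0.425% in Tap2. None did in B2m, Psmb8, Psmb9, Psmb10 or Nlrc5. Tap1 and Psmb9 overlap on opposite strands at their starts, and Tapbp overlaps Zbtb22 on the same strand. Whether strand entered the counting is not stated.

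Promoter sequences are shown for the 2 classical heavy chains and for the light chain B2m, because these hold the same pair of motifs at the same distance, and for Tap1, which does not. Class I promoters are known for a block of motifs, the X and Y boxes among them, on which RFX, CREB/ATF and NF-Y factors assemble with NLRC5. The sequences are from RefSeq on GRCm38.p6, hold 250 bases before and 50 bases from the annotated start, and are written 5′ to 3′ on the gene's strand. Capitals mark TGACG, the core of the X2 box, and ATTGG, the Y box, which is CCAAT read on the other strand. In Tap1, capitals mark TGACG alone.
H2-K1 (chr17:34000298-34000597, minus strand): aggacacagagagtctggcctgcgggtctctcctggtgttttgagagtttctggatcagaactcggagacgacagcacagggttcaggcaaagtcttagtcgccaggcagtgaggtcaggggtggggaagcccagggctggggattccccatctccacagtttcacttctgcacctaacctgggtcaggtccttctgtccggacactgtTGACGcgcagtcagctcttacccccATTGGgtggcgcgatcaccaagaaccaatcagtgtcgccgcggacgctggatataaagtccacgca
H2-D1 (chr17:35262844-35263143, plus strand): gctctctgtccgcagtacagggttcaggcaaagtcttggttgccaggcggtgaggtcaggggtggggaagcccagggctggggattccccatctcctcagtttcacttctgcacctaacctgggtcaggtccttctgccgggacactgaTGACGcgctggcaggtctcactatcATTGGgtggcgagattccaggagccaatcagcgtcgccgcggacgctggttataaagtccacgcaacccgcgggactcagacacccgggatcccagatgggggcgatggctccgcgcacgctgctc
B2m (chr2:122147437-122147736, plus strand): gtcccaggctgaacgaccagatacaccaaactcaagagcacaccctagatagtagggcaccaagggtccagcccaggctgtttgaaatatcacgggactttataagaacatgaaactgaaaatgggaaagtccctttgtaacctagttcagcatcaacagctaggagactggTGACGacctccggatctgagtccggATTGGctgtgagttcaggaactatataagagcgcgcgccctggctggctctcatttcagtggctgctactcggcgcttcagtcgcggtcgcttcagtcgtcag
Tap1 (chr17:34187306-34187605, plus strand): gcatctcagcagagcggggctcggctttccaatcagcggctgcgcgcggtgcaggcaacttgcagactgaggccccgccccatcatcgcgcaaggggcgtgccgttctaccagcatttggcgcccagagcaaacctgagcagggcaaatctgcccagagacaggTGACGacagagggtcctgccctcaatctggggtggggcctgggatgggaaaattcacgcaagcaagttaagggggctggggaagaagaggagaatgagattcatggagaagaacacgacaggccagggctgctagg

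In the windows of H2-K1, H2-D1 and B2m, TGACG lay 41, 101 and 78 bases before the annotated start, and in each of them exactly 20 bases separated it from ATTGG. This distance was read off the 3 windows and was not set beforehand. Across all 27025 promoters of the table, searched in the same way on both strands, 26 (0.0962%) held the pair at this distance. Among 9 other class I heavy chain genes with a window, H2-M3 held it. The table has a window for 8 of the 10 genes, and its window for a second start of H2-K1 holds the same pair.

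Other motifs were searched on both strands in the same windows. CCAAT was found in 6 of the 8 genes, in part as the Y boxes above, and in 37.9% of all promoters, and TGACG in 5 of the 8 genes and 21% of all promoters. The letters GGGNNTTCC, a form of NF-kB site, were found in H2-K1 and H2-D1 (5.72% of all promoters). The letters GAAANNGAA, a form of interferon motif, were found in B2m (8.57%) and in no other of the 8. The letters TTCNNNGAA, a form of STAT motif, were found in Psmb8 (8.47%) and in no other of the 8. Other forms of these motifs were not searched, so whether the other windows, those of H2-K1 and H2-D1 among them, hold an interferon motif was not tested. In the RefSeq table the starts of Tap1 and Psmb9 are 226 bases apart and their windows share 275 bases, so their matches are not independent.

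A level below is the UMIs of a gene summed over the cells of a type in a library, scaled to CPM with the UMIs of those cells. Intervals, in square brackets, are exact, at 95%, and cover counting error only, not variation between mice or captures. A ratio is the log2 of the KO-labelled over the WT-labelled level. A gene was past the fold at a ratio of at least 0.5 in size, with at least 50 UMIs over both libraries.

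Over all epithelial cells, none of the 10 genes was past the fold, against 16.5% of the 18994 genes measured. The KO-labelled level was higher for 4 genes and lower for 6, and 51.4% of all genes were lower. The median ratio was -0.08 over the 10 genes and -0.01 over all genes measured.

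H2-K1, a classical heavy chain, had 3227 CPM in KO-labelled and 3294 CPM in WT-labelled epithelial cells, a ratio of -0.03 [-0.04, -0.02]. H2-D1, the other classical heavy chain, had 2070 CPM in KO-labelled and 1994 CPM in WT-labelled cells (0.05 [0.04, 0.07]). B2m, the light chain of every classical class I molecule, had 3133 CPM in KO-labelled and 3576 CPM in WT-labelled cells (-0.19 [-0.20, -0.18]). The 2 heavy chains and the light chain thus did not share a direction, and behind each of these levels stand at least 46273 UMIs, which makes the intervals narrow.

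Among the genes of peptide transport and loading, Tap1, a subunit of the transporter, had 79.8 CPM in KO-labelled and 87.5 CPM in WT-labelled cells (-0.13 [-0.22, -0.05]). This ratio was -0.26 with the types weighted alike and -0.05 with each cell weighted alike. Tap2, its partner subunit, had 102 CPM in KO-labelled and 99.8 CPM in WT-labelled cells (0.02 [-0.05, 0.10]), with an interval that holds 0. Tapbp, which encodes tapasin, had 194 CPM in KO-labelled and 219 CPM in WT-labelled cells (-0.18 [-0.23, -0.12]). All 3 ratios were under the fold.

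Of the immunoproteasome subunits, Psmb8 had 243 CPM in KO-labelled and 240 CPM in WT-labelled cells (0.02 [-0.03, 0.07]). Psmb9 had 173 CPM in KO-labelled and 160 CPM in WT-labelled cells (0.11 [0.05, 0.17]). Psmb10 had 230 CPM in KO-labelled and 253 CPM in WT-labelled cells (-0.14 [-0.19, -0.09]). The 3 subunits are built into the same particle, and their ratios lay on both sides of 0. Nlrc5, the transactivator of class I genes, had the lowest ratio of the 10, with 87.8 CPM in KO-labelled and 105 CPM in WT-labelled cells (-0.26 [-0.34, -0.17]). With each cell weighted alike its ratio was -0.10 and no longer the lowest, with B2m at -0.25 and Psmb10 at -0.19.

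The libraries differ in their mixture of cell types, so cells were grouped by markers into 8 named types and 4 unnamed clusters, each with 50 cells or more on both sides. Mimetic cells are medullary thymic epithelial cells (mTECs) that express genes of a tissue outside the thymus, such as gut or skin. The other named types are Aire-stage mTEC-like cells (588 KO-labelled and 878 WT-labelled cells), Ccl21a mTEC-like cells (1025 KO-labelled and 982 WT-labelled) and cycling cells (85 KO-labelled and 83 WT-labelled). The mimetic types are tuft-like (261 KO-labelled and 499 WT-labelled), neuroendocrine-like (170 KO-labelled and 156 WT-labelled), microfold-like (78 KO-labelled and 107 WT-labelled), keratinocyte-like (51 KO-labelled and 90 WT-labelled) and gut- and liver-like cells (54 KO-labelled and 86 WT-labelled). The unnamed clusters were led by Klk1b26 and Ccl22 (cluster 2), Gm42418 (cluster 4), Bpifa1 and Ltf (cluster 7) and Fabp9 (cluster 11). Cluster 2 held 273 KO-labelled and 405 WT-labelled cells, and cluster 7 held 153 KO-labelled and 224 WT-labelled cells. Cluster 4 held 376 KO-labelled and 178 WT-labelled cells, and cluster 11 held 64 KO-labelled and 163 WT-labelled cells. Cluster 4 thus made up 11.5% of KO-labelled and 4.58% of WT-labelled epithelial cells. The 10 genes and related class I and interferon genes were kept out of the clustering.

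**Figure D1:**
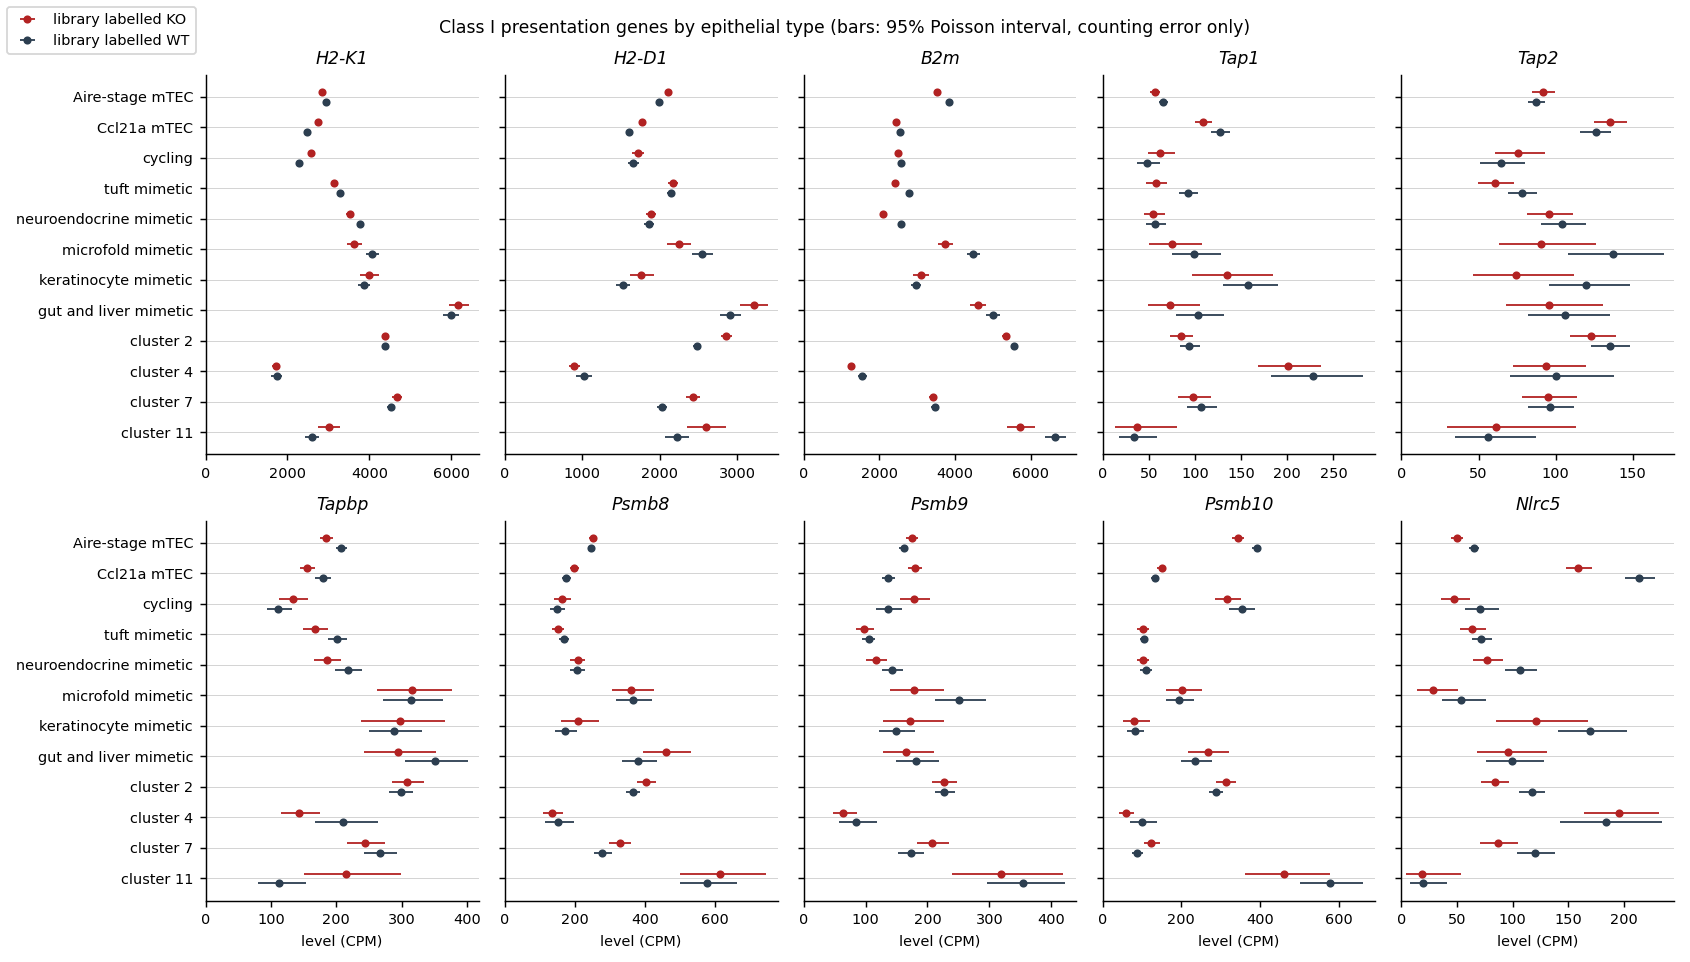
Level of each of the 10 genes (horizontal axis, CPM, a separate range for each gene) in 8 named epithelial types and 4 unnamed clusters (rows), in the library labelled KO (red, upper point of each row) and the library labelled WT (dark, lower point), with 95% Poisson intervals for counting error only. H2-K1 was highest in gut- and liver-like cells, at 6182 CPM in KO-labelled and 5991 CPM in WT-labelled cells, and Tap1 in cluster 4, at 201 CPM in KO-labelled and 228 CPM in WT-labelled cells.

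Orders below cover these 12 types, and types with fewer cells in a library stand outside them. Levels differed more between types than between the libraries. From the lowest to the highest of the 12 types, H2-K1 spanned 3.60-fold in KO-labelled and 3.46-fold in WT-labelled cells. Nlrc5 spanned the widest range of the 10 genes, 10.7-fold in KO-labelled and 10.9-fold in WT-labelled cells, and Tap2 the narrowest, 2.24-fold in KO-labelled and 2.43-fold in WT-labelled cells. The low end of Nlrc5 was cluster 11, at 18.4 CPM in KO-labelled and 19.7 CPM in WT-labelled cells, on fewer than 50 UMIs. Its next lowest type, the microfold-like cells, had 28.5 CPM in KO-labelled and 53.6 CPM in WT-labelled cells. Psmb10 spanned the next widest range, 7.87-fold in KO-labelled and 7.07-fold in WT-labelled cells. For the 10 genes, where they had 50 UMIs or more, no ratio between the libraries within any of the 12 types exceeded 0.93 in size.

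Gut- and liver-like cells, led by genes such as Ttr and Sis, had the highest level of both classical heavy chains in both libraries. H2-K1 stood there at 6182 CPM in KO-labelled and 5991 CPM in WT-labelled cells, and in the next of the 12 types, cluster 7, at 4687 CPM in KO-labelled and 4534 CPM in WT-labelled cells. The intervals of these neighbours did not overlap in either library. Ciliated-like cells, outside the 12 types with 42 KO-labelled and 28 WT-labelled cells, stood between them, at 5371 CPM [5157, 5592] in KO-labelled and 5685 CPM [5408, 5972] in WT-labelled cells. In the WT-labelled library their interval overlapped that of gut- and liver-like cells [5799, 6189]. Set against all other epithelial cells of the same library, H2-K1 in gut- and liver-like cells was higher by 0.96 on the log2 scale in KO-labelled and by 0.89 in WT-labelled cells.

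H2-D1 stood at 3207 CPM in KO-labelled and 2903 CPM in WT-labelled gut- and liver-like cells. Its next type was cluster 2 in the KO-labelled library (2857 CPM) and the microfold-like cells in the WT-labelled library (2547 CPM). At the low end, cluster 4 had 899 CPM of H2-D1 in KO-labelled and 1016 CPM in WT-labelled cells. It had 1716 CPM of H2-K1 in KO-labelled and 1734 CPM in WT-labelled cells, and was the lowest of the 12 types for both genes in both libraries.

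B2m followed another order. It was highest in cluster 11, at 5730 CPM [5368, 6110] in KO-labelled and 6651 CPM [6385, 6925] in WT-labelled cells, and then in cluster 2, at 5344 CPM [5246, 5444] in KO-labelled and 5554 CPM [5476, 5633] in WT-labelled cells. The intervals of these 2 clusters overlapped in the KO-labelled library and not in the WT-labelled one. Gut- and liver-like cells came next, at 4613 CPM in KO-labelled and 5003 CPM in WT-labelled cells, before microfold-like cells at 3747 CPM in KO-labelled and 4477 CPM in WT-labelled cells.

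Aire-stage cells, which express many genes of other tissues, had 3522 CPM of B2m in KO-labelled and 3847 CPM in WT-labelled cells, and cluster 7 had 3431 CPM in KO-labelled and 3469 CPM in WT-labelled cells. Keratinocyte-like cells, at 3096 CPM in KO-labelled and 2965 CPM in WT-labelled cells, were the 1 type of 12 with the higher level on the KO-labelled side. Cycling, tuft-like, Ccl21a and neuroendocrine-like cells lay close together, between 2095 and 2501 CPM in KO-labelled and between 2553 and 2781 CPM in WT-labelled cells. Cluster 4 had the least, 1258 CPM in KO-labelled and 1550 CPM in WT-labelled cells.

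In cluster 4, the lowest for B2m and both heavy chains, Nlrc5 and Tap1 were high. Nlrc5 had 196 CPM [164, 232] in KO-labelled and 184 CPM [143, 234] in WT-labelled cells, and in Ccl21a cells 159 CPM [148, 171] in KO-labelled and 214 CPM [201, 228] in WT-labelled cells. The intervals of these neighbours, the top pair in both libraries, overlapped. The Ccl21a cells pool 3 clusters. Cluster 0, led by Vit, Boc, Ifi202b and Rarb and named from other markers than Ccl21a itself, had 266 CPM of Nlrc5 in KO-labelled and 325 CPM in WT-labelled cells. Cluster 3, led by Ccl21a and by contractile genes such as Tagln and Acta2, had 105 CPM in KO-labelled and 118 CPM in WT-labelled cells, and cluster 12, led by Matn1, had 94.9 CPM in KO-labelled and 113 CPM in WT-labelled cells.

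In the other types, Nlrc5 ran from 121 CPM in KO-labelled and 170 CPM in WT-labelled keratinocyte-like cells down to 18.4 CPM in KO-labelled (3 UMIs) and 19.7 CPM in WT-labelled cells (7 UMIs) of cluster 11. Aire-stage cells were near the low end, at 49.8 CPM in KO-labelled and 65.1 CPM in WT-labelled cells. This is lower than in other epithelial cells of the same library, by a log2 difference of -1.06 in KO-labelled and -0.97 in WT-labelled cells. Microfold-like cells were lower still, at 28.5 CPM in KO-labelled and 53.6 CPM in WT-labelled cells. Cycling cells had 47.0 CPM in KO-labelled and 71.0 CPM in WT-labelled cells, close to the Aire-stage cells, and tuft-like cells had 63.7 CPM in KO-labelled and 71.8 CPM in WT-labelled cells.

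Tap1 had its highest level in cluster 4, at 201 CPM [168, 237] in KO-labelled and 228 CPM [182, 282] in WT-labelled cells, followed by keratinocyte-like cells at 135 CPM in KO-labelled and 158 CPM in WT-labelled cells. Within the Ccl21a cells, cluster 0 had 139 CPM of Tap1 in KO-labelled and 172 CPM in WT-labelled cells, and cluster 3 had 93.5 CPM in KO-labelled and 92.5 CPM in WT-labelled cells. Cluster 11 had the least, 36.8 CPM in KO-labelled and 33.8 CPM in WT-labelled cells, on 6 KO-labelled and 12 WT-labelled UMIs. Tap1 and Nlrc5 thus shared the low end of their order, and cluster 4 was first or next to first for both.

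Tap2 differed less between types, and its order was not the same in the 2 libraries. In Ccl21a cells it had 135 CPM in KO-labelled and 126 CPM in WT-labelled cells, and in tuft-like cells 60.4 CPM in KO-labelled and 78.2 CPM in WT-labelled cells. Microfold-like cells came first in the WT-labelled library, at 137 CPM, while in the KO-labelled library they had 90.6 CPM, just below the Aire-stage cells at 92.0 CPM. Tapbp was highest in microfold-like cells of the KO-labelled library (316 CPM) and in gut- and liver-like cells of the WT-labelled library (351 CPM). It was lowest in cycling cells in both, at 133 CPM in KO-labelled and 111 CPM in WT-labelled cells.

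Clusters 0 and 4, where Nlrc5 and Tap1 were high, had little RNA per cell. Cluster 0 had medians of 2690 UMIs in KO-labelled and 3135 in WT-labelled cells, with 4.39% mitochondrial UMIs in KO-labelled and 4.34% in WT-labelled cells. Cluster 4 had 1690.5 UMIs in KO-labelled and 1922.5 in WT-labelled cells, with 6.08% mitochondrial UMIs in KO-labelled and 5.93% in WT-labelled cells. Over all epithelial cells these UMIs made up 2.53% in KO-labelled and 2.55% in WT-labelled cells. Over the 24 points given by 12 types in 2 libraries, the log2 level of Tap1 had a Pearson correlation of 0.60 with the mitochondrial percentage and 0.59 with the log2 level of Malat1, a nuclear RNA. For Nlrc5 these were 0.54 (mitochondrial percentage) and 0.52 (Malat1), and for B2m -0.76 (mitochondrial percentage) and -0.16 (Malat1). The part of RNA quality in these levels was not tested. Nlrc5 spans 92917 bases, of which 9.14% are exonic, and whether intronic reads entered the counts is not stated.

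The 3 immunoproteasome genes were all highest, among the 12 types, in cluster 11, which has a median of 2159.5 UMIs in KO-labelled and 1805 in WT-labelled cells. Psmb8 had 614 CPM there in KO-labelled and 577 CPM in WT-labelled cells, Psmb9 had 319 CPM in KO-labelled and 355 CPM in WT-labelled cells, and Psmb10 had 461 CPM in KO-labelled and 577 CPM in WT-labelled cells. Below it the 3 genes parted. Psmb8 was next in gut- and liver-like cells, at 460 CPM in KO-labelled and 382 CPM in WT-labelled cells. Psmb10 was next in Aire-stage cells, at 343 CPM in KO-labelled and 392 CPM in WT-labelled cells, higher than in other epithelial cells of the same library by 0.93 on the log2 scale in KO-labelled and 1.18 in WT-labelled cells. It was low in keratinocyte-like cells, at 81.0 CPM in KO-labelled and 81.6 CPM in WT-labelled cells. Tuft-like cells had low levels of all 3, with a log2 difference to other epithelial cells of -0.73 in KO-labelled and -0.56 in WT-labelled cells for Psmb8. The difference was -0.87 in KO-labelled and -0.67 in WT-labelled cells for Psmb9, and -1.23 in KO-labelled and -1.38 in WT-labelled cells for Psmb10.

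Each immunoproteasome subunit replaces a constitutive one, Psmb8 for Psmb5, Psmb9 for Psmb6 and Psmb10 for Psmb7, so the share it takes of its pair's UMIs can be compared between types. The share is not one of molecules, because the capture of the 2 genes of a pair can differ. Over all epithelial cells, Psmb8 took 61.2% [60.2, 62.2] of its pair in KO-labelled and 63.0% [62.2, 63.9] in WT-labelled cells. Psmb10 took 69.0% [68.0, 70.1] in KO-labelled and 70.1% [69.2, 70.9] in WT-labelled cells. The share of Psmb9 was 48.9% in KO-labelled cells, and its interval too met that of the WT-labelled cells.

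Between types the shares ranged widely. Psmb8 took 80.6% of its pair in KO-labelled and 75.0% in WT-labelled gut- and liver-like cells, and 80.9% in KO-labelled and 82.4% in WT-labelled cells of cluster 4. The shares in cluster 4 rest on 22 Psmb5 UMIs in KO-labelled and 12 in WT-labelled cells. Psmb8 itself was low in that cluster, at 136 CPM in KO-labelled and 152 CPM in WT-labelled cells. In cycling cells it took 41.6% in KO-labelled and 42.2% in WT-labelled cells. The 2 clusters of Aire-stage cells also differed, with 42.2% in KO-labelled and 39.4% in WT-labelled cells of cluster 5, led by Tmem158 and Utf1, and 64.9% in KO-labelled and 67.1% in WT-labelled cells of cluster 1, led by Csn1s2a.

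Psmb10 showed another order, with 76.4% of its pair in KO-labelled and 79.0% in WT-labelled cells of cluster 5. Microfold-like cells had a high Psmb8 share, 74.9% in KO-labelled and 71.6% in WT-labelled cells, beside the lowest Psmb10 share of the 12 types, 37.7% in KO-labelled and 32.8% in WT-labelled cells. Their constitutive partner Psmb7 had 334 CPM in KO-labelled and 396 CPM in WT-labelled cells, while over all epithelial cells it had 103 CPM in KO-labelled and 108 CPM in WT-labelled cells. Between the libraries, the intervals parted for Psmb8 in tuft-like cells, at 54.7% [50.2, 59.1] in KO-labelled and 62.8% [59.7, 65.9] in WT-labelled cells. They also parted for Psmb9 in neuroendocrine-like cells, at 43.0% [38.5, 47.6] in KO-labelled and 53.1% [48.7, 57.4] in WT-labelled cells, and for Psmb10 in Aire-stage cells, at 74.2% [72.6, 75.7] in KO-labelled and 77.0% [75.9, 78.1] in WT-labelled cells. All other intervals of the 12 types met.

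**Figure D2:**
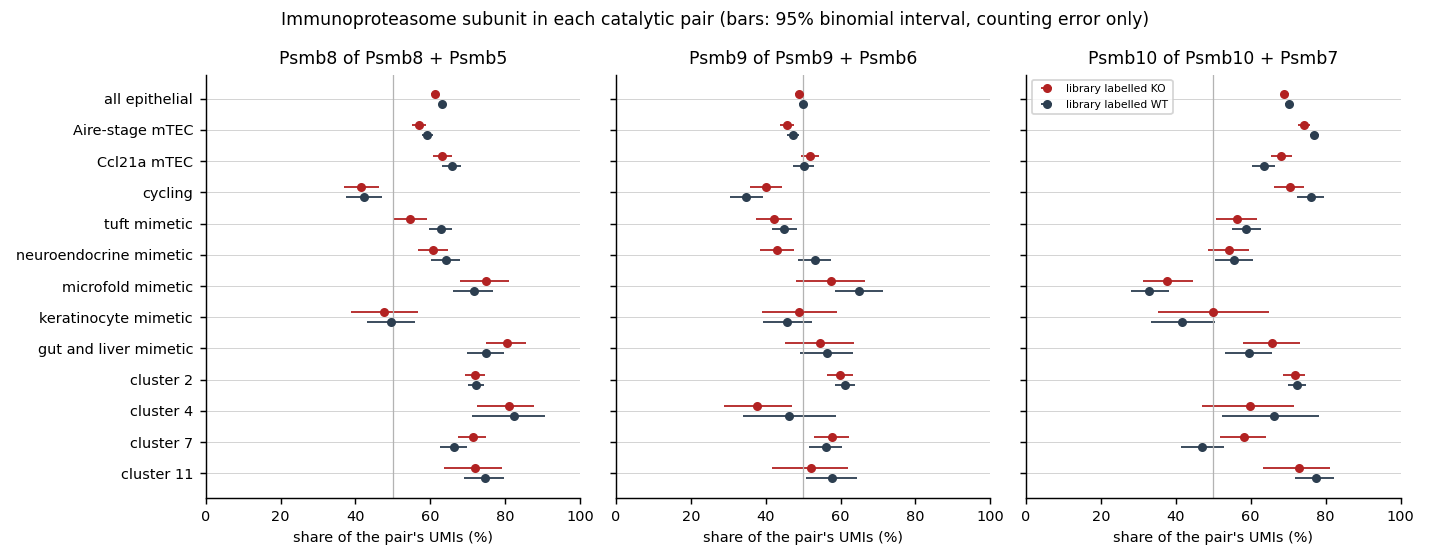
Share of the UMIs of each catalytic pair that came from the immunoproteasome subunit (horizontal axis, percent) in all epithelial cells, 8 named types and 4 unnamed clusters (rows), for the library labelled KO (red) and the library labelled WT (dark), with 95% binomial intervals. The Psmb8 share is lowest in cycling cells (41.6% KO-labelled, 42.2% WT-labelled), and the Psmb10 share in microfold-like cells (37.7% KO-labelled, 32.8% WT-labelled).

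The KO-labelled library held 33 cortical cells and the WT-labelled library 1, so the libraries were not compared in them. In the 33 cells, Psmb11, the catalytic subunit of the cortex, had 571 CPM. Psmb9 had 580 CPM [481, 695] and Psmb10 615 CPM [512, 732], above the levels of cluster 11 in the same library, with overlapping intervals for Psmb10. Psmb9 took 75.3% [67.8, 81.8] of its pair and Psmb10 88.1% [81.6, 92.9], while Psmb8 took 38.1% [26.1, 51.2] of the pair with Psmb5.

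The 10 genes did not vary as 1 block from type to type. Pearson correlations were computed on log2 of CPM plus 1 over the 24 points, which share libraries and depth, so they describe these cells and carry no test. B2m varied with Psmb8 (0.90), Psmb9 (0.89) and H2-D1 (0.85), and H2-K1 with H2-D1 (0.80) and Tapbp (0.76). Tap1 varied with Nlrc5 (0.81), and both varied against Psmb10 (-0.70 for Tap1, -0.69 for Nlrc5). Values on fewer than 50 UMIs entered alike, among them Tap1 and Nlrc5 in cluster 11, where both were lowest and Psmb10 was highest. Nlrc5 had -0.56 with B2m and -0.50 with H2-D1. Tap1 and Psmb9, the neighbours with the shared promoter, had -0.52. With the mitochondrial percentage the same points gave -0.82 for Psmb9, -0.76 for B2m, -0.70 for H2-D1 and -0.63 for Psmb8. Psmb10 had -0.59 with it, H2-K1 -0.58, Tapbp -0.27, Tap2 0.07, Nlrc5 0.54 and Tap1 0.60. The part of RNA quality in the correlations between genes was not tested.

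**Figure D3:**
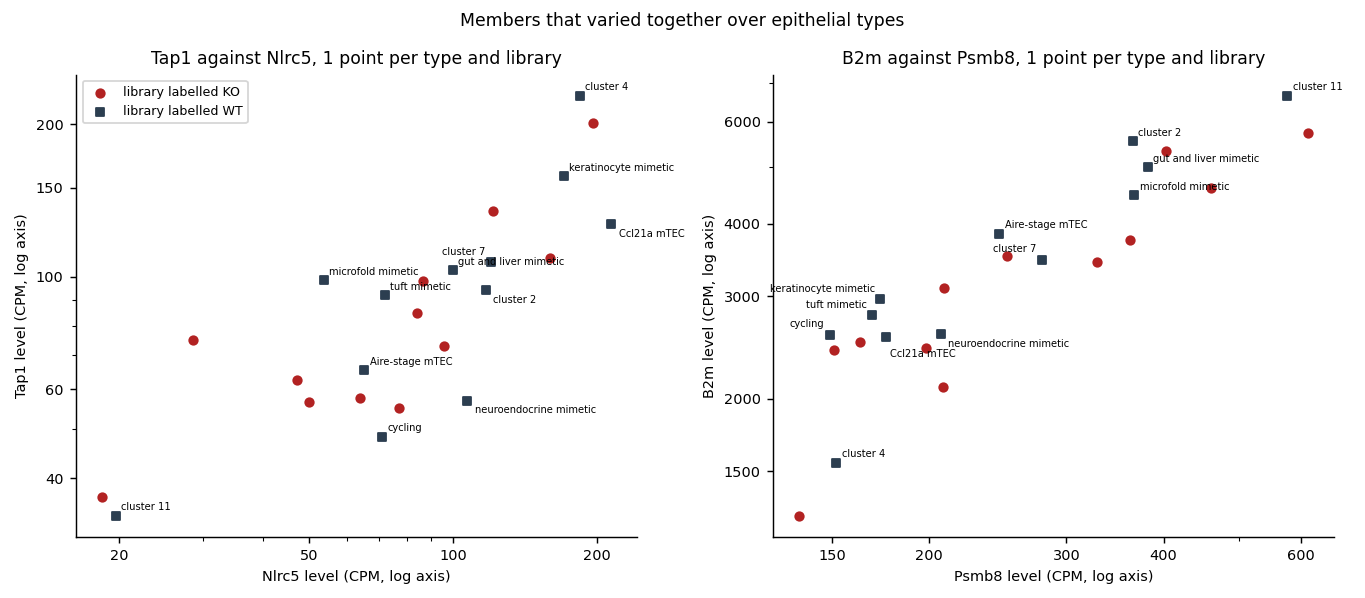
Left, Tap1 level against Nlrc5 level; right, B2m level against Psmb8 level (CPM, log axes), with 1 point for each of 12 types in the library labelled KO (red circles) and the library labelled WT (dark squares, named). Tap1 and Nlrc5 vary together (Pearson 0.81), with cluster 4 highest in Tap1 and cluster 11 lowest in both, while cluster 11 is highest in B2m and Psmb8 (0.90) and cluster 4 lowest in B2m.

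The mean standardised profile of the 10 genes correlated with H2-K1 (0.82), B2m (0.80), H2-D1 and Tapbp (0.77 each), Psmb8 (0.76), Psmb9 (0.68), Tap2 (0.50) and Psmb10 (0.34). Tap1 and Nlrc5 had -0.01 and -0.07 with it. Among 14357 genes with 200 UMIs or more, those outside the 10 nearest to this mean profile were Aqp3 and Ces2c (0.88 each), 4930414F18Rik (0.87), Lhfpl2 (0.86), Fmo5, Aoc1 and Clrn3 (0.85 each), Sept9 (0.84) and Hmox1 and H2-T23 (0.83 each). Of these, H2-T23 is itself a class I heavy chain gene, and Aqp3 encodes a water and glycerol channel.

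The nearest genes of the single members differed. Psmb10 was nearest to H2-DMb2 and H2-Eb1 (0.95 each) and Cd74 (0.94), all genes of the MHC class II route. Tap1 was nearest to Nfe2l1 (0.96), which encodes a transcription factor of proteasome genes, then Tead3 (0.91) and Zbtb7c (0.90). Nlrc5 was nearest to Rbfox1 (0.93), Myo10 and Zbtb7c (0.92 each). These span 1526, 191 and 328 kb of the genome, against a median of 12.3 kb over 32235 genes of the files. The nearest genes of H2-K1 were above that median too (39.8 to 77.8 kb), and those of Psmb10 below it (8.25 to 10.8 kb). H2-K1 was nearest to Selenoi (0.94), Tmc5 and Ndfip2 (0.93 each), and H2-D1 to Tmem176a (0.90), Atp6v0e and Bak1 (0.88 each).

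B2m and Psmb8 had the same nearest gene, Npc2, a lysosomal cholesterol carrier (0.94 with B2m, 0.93 with Psmb8). It was followed by Capg and Smtnl1 (0.93 each) for B2m and by Ube2l6 (0.91), an enzyme of ISG15 conjugation, and Serpinb9 (0.90) for Psmb8. Psmb9 was nearest to Txndc17 (0.90), Eif2s2 and Mrps18c (0.89 each), and Tapbp to Atp6v0a2 (0.88), Sema4a (0.87) and Abhd12 (0.86). Tap2 had the most distant neighbours, Gm20275 (0.79), Klf6 and Slco2a1 (0.78 each).

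Within types, the libraries were then compared gene by gene, and a gene of the 10 was past the fold in 8 cases. The share of all measured genes past it was 20.2% in Aire-stage, 15.0% in Ccl21a, 18.9% in cycling, 14.5% in tuft-like, 17.0% in neuroendocrine-like, 19.7% in microfold-like, 27.4% in keratinocyte-like and 26.1% in gut- and liver-like cells. In the unnamed clusters it was 18.6% in cluster 2, 20.2% in cluster 4, 19.7% in cluster 7 and 27.1% in cluster 11. Of the 10 genes, 2 were past the fold in cluster 4 and 1 in each of the cycling, tuft-like, microfold-like and keratinocyte-like cells and clusters 7 and 11. In none of the 12 types was the share of the measured members past the fold above that of all genes.

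**Figure D4:**
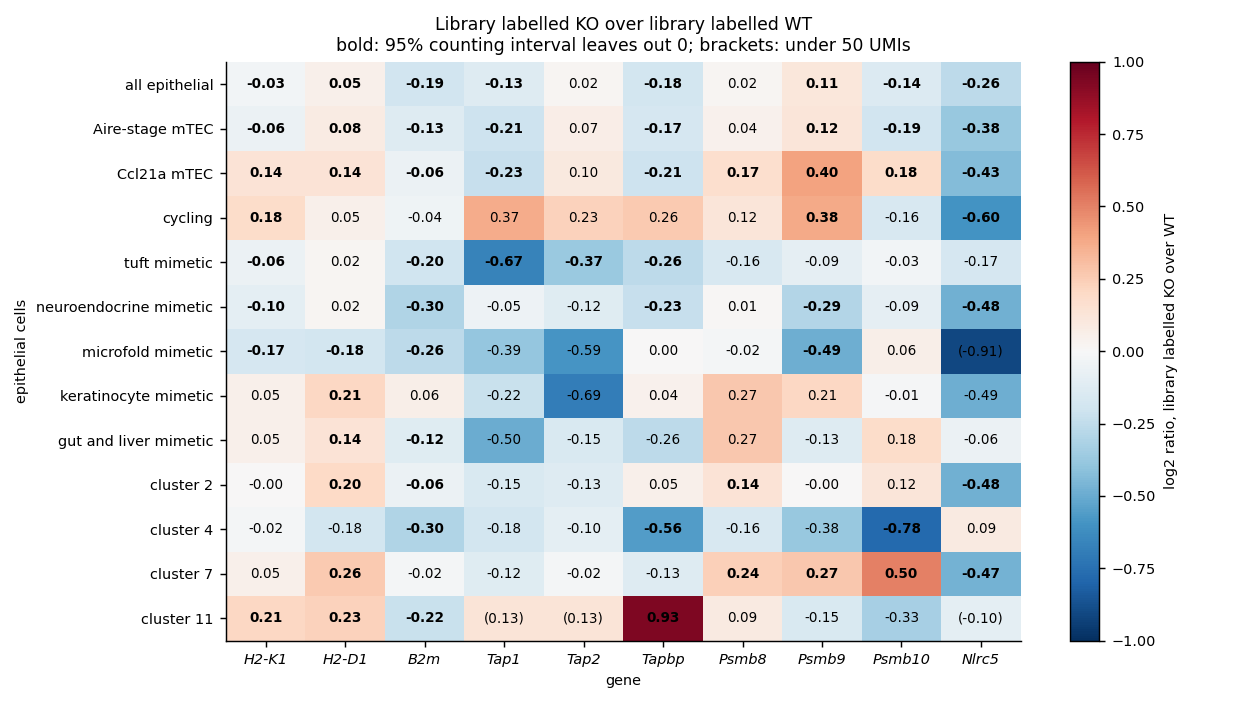
Log2 ratio of KO-labelled over WT-labelled levels for each of the 10 genes (columns) in all epithelial cells, 8 named types and 4 unnamed clusters (rows). Colour and numbers give the ratio, bold marks a 95% counting interval that leaves out 0, and brackets mark genes with fewer than 50 UMIs. The B2m column is below 0 in 11 of 12 types and the H2-D1 column above 0 in 10 of 12.

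The median ratio of the 10 genes was 0.12 in Ccl21a cells, with 6 genes higher and 4 lower on the KO-labelled side, against a median of -0.01 over all genes measured there. With the 3 clusters of this type weighted alike it was 0.02, and with types taken from markers in each cell -0.03, so that its direction turned. In tuft-like cells it was -0.17, with 1 higher and 9 lower, against -0.00 over all genes, and in Aire-stage cells -0.09 against -0.04. Ccl21a cells made up 31.4% of KO-labelled and 25.3% of WT-labelled epithelial cells, and tuft-like cells 8.0% of KO-labelled and 12.8% of WT-labelled cells.

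B2m was lower on the KO-labelled side in 11 of 12 types, from -0.30 in cluster 4 to 0.06 in keratinocyte-like cells, and its interval lay below 0 in 9. H2-D1 was higher on the KO-labelled side in 10 of 12 types, from -0.18 in microfold-like cells to 0.26 in cluster 7, with the interval above 0 in 7. H2-K1 was higher in 6 types and lower in 6. None of these ratios reached the fold, and all rest on the same 2 libraries, so the types do not count as repeats.

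Nlrc5 was lower on the KO-labelled side in 9 of the 10 types in which it had 50 UMIs or more, with the interval below 0 in 6. It was past the fold in cycling cells, on 54 UMIs (47.0 CPM) in KO-labelled and 88 UMIs (71.0 CPM) in WT-labelled cells, a ratio of -0.60 [-1.11, -0.09]. With each cell weighted alike this ratio was -0.46, and with types taken from markers in each cell -0.29, both short of the fold. Keratinocyte-like cells (-0.49), neuroendocrine-like cells (-0.48) and cluster 2 (-0.48) came just short of it as well, as did Psmb9 in microfold-like cells (-0.49) and Tap1 in gut- and liver-like cells (-0.50 when rounded). Cluster 4 was the exception to the direction, at 0.09 [-0.34, 0.53].

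Tap1 was lower on the KO-labelled side in 10 of 11 types. It was past the fold in tuft-like cells, which share the chemosensory genes of gut and airway tuft cells, at 57.7 CPM (105 UMIs) in KO-labelled and 92.0 CPM (327 UMIs) in WT-labelled cells, a ratio of -0.67 [-1.01, -0.35]. Cluster 6, led by the taste genes Rgs21 and Gnat3, had 55.4 CPM in KO-labelled and 85.0 CPM in WT-labelled cells (-0.62 [-1.01, -0.24]). Cluster 10, with Alox5ap among its leading genes, had 64.2 CPM in KO-labelled and 113 CPM in WT-labelled cells (-0.82 [-1.46, -0.22]). Both tuft-like clusters thus lay on the same side. In tuft-like cells Tap2 had -0.37 [-0.70, -0.05], Tapbp -0.26 and B2m -0.20, while Psmb10 had -0.03. With cells under 1000 genes or 2000 UMIs, or over 5% mitochondrial UMIs, left out, the ratio of Tap1 was -0.46, short of the fold.

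Tap2 was past the fold in microfold-like cells, mimics of the cells that sample the gut lumen, with 35 UMIs (90.6 CPM) in KO-labelled and 79 UMIs (137 CPM) in WT-labelled cells (-0.59 [-1.21, -0.00]). It was also past it in keratinocyte-like cells, with 22 UMIs (74.2 CPM) in KO-labelled and 85 UMIs (120 CPM) in WT-labelled cells (-0.69 [-1.44, 0.00]). Both intervals reach 0. With each cell weighted alike, the ratio in keratinocyte-like cells was -0.12.

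In the low-RNA cluster 4, Psmb10 had 40 UMIs (58.6 CPM) in KO-labelled and 37 UMIs (100 CPM) in WT-labelled cells (-0.78 [-1.46, -0.09]). Tapbp had 143 CPM in KO-labelled and 211 CPM in WT-labelled cells of the same cluster (-0.56 [-1.0, -0.11]). In cluster 7 Psmb10 was higher on the KO-labelled side, at 124 CPM in KO-labelled and 87.3 CPM in WT-labelled cells (0.50 [0.16, 0.84]). In cluster 11 Tapbp was higher, at 215 CPM on 35 UMIs in KO-labelled and 113 CPM on 40 UMIs in WT-labelled cells (0.93 [0.24, 1.62]). The same gene thus lay past the fold in opposite directions in 2 clusters, for Psmb10 and for Tapbp alike.

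In Ccl21a cells Psmb9 had 180 CPM in KO-labelled and 137 CPM in WT-labelled cells (0.40 [0.25, 0.55]), and Nlrc5 had a ratio of -0.43 [-0.57, -0.29]. The mixture of the 3 clusters behind this type differed between the libraries, with 534 KO-labelled and 627 WT-labelled cells in cluster 0, 381 KO-labelled and 270 WT-labelled cells in cluster 3, and 110 KO-labelled and 85 WT-labelled cells in cluster 12. With the 3 clusters weighted alike in both libraries, the ratio was 0.24 for Psmb9 and -0.26 for Nlrc5. Within the clusters, Psmb9 had 0.28 in cluster 0, 0.23 in cluster 3 and 0.25 in cluster 12, and Nlrc5 had -0.29 in cluster 0, -0.18 in cluster 3 and -0.26 in cluster 12.

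Cells were also counted as carriers of a UMI at equal depth, with each cell thinned to 2000 UMIs and 489 shallower KO-labelled and 428 shallower WT-labelled cells left out. B2m was found in 95.7% [94.9, 96.5] of KO-labelled and 97.3% [96.7, 97.8] of WT-labelled epithelial cells. Nlrc5 was found in 17.3% [15.9, 18.8] of KO-labelled and 19.6% [18.3, 21] of WT-labelled cells, and without thinning in 35.8% of KO-labelled and 42.4% of WT-labelled cells. Tap1 was found in 15.6% [14.3, 17.0] of KO-labelled and 17.8% [16.6, 19.1] of WT-labelled cells, and without thinning in 36.2% of KO-labelled and 41.6% of WT-labelled cells. Class I genes are active in nearly all nucleated cells, so no cell type here could set a background share, and the shares are levels of detection only.

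The genes around the class I route were described from lists of related genes. As a background for the lists over all epithelial cells, 16.5% of all genes measured were past the fold and 51.4% were lower. Over all epithelial cells, 11 of 12 other class I heavy chain genes were measured, with 8 higher and 3 lower on the KO-labelled side and a median of 0.07. H2-Q10, a heavy chain known as a product of the liver, was past the fold at 31.0 CPM in KO-labelled and 47.7 CPM in WT-labelled cells (-0.62 [-0.75, -0.49]). The 7 genes of peptide loading and trimming had a median of -0.01 and 0 past the fold, and the chaperone Hspa5 had the lowest ratio of them, -0.36. Of the proteasome core subunits outside the catalytic exchange, 10 of 11 were higher, with a median of 0.09 and 0 past the fold. With each cell weighted alike that median was -0.02.

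Constitutive and thymic catalytic subunits had a median of 0.15 over 4 genes, where 16.5% of all genes were past the fold. Psmb11 was past the fold, with 247 UMIs in KO-labelled and 156 UMIs (5.07 CPM) in WT-labelled cells, a ratio of 1.12 [0.83, 1.42]. Of the 247 UMIs, 117 came from the 33 cortical cells. The 5 proteasome activator and assembly genes had a median of -0.04 and 0 past the fold.

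Among 21 transcriptional regulators of class I and interferon genes, 6 were higher and 15 lower on the KO-labelled side, with a median of -0.03 and 0 past the fold. Over all genes measured, 51.4% were lower and 16.5% past the fold. Nfya, a subunit of the factor NF-Y that binds CCAAT, had 27.7 CPM in KO-labelled and 38.7 CPM in WT-labelled cells (-0.48). Rfx5, a factor of the X box, had 16.4 CPM in KO-labelled and 16.9 CPM in WT-labelled cells, and Ciita, the class II counterpart of Nlrc5, had a ratio of -0.24. The 11 interferon receptors and kinases had a median of -0.07 and 0 past the fold.

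Of 17 interferon response genes measured, 14 were higher on the KO-labelled side, with a median of 0.20 and 1 past the fold. Of all genes measured in epithelial cells, 51.4% were lower and 16.5% past the fold. These counts pool types whose shares differ between the libraries. Ccl21a cells made up 31.4% of KO-labelled and 25.3% of WT-labelled epithelial cells. Cluster 4 made up 11.5% of KO-labelled and 4.58% of WT-labelled cells. Most interferon response genes were lower on the KO-labelled side in Ccl21a cells and cluster 4, and higher in Aire-stage cells and cluster 7. The part of the mixture of types in the pooled direction was not tested. Bst2, an antiviral membrane protein, was past the fold at 237 CPM in KO-labelled and 158 CPM in WT-labelled cells (0.58 [0.53, 0.64]). Of 6 interferon genes, 3 had 50 UMIs or more. Ifnb1, a type I interferon, had 2.37 CPM on 53 UMIs in KO-labelled and 1.01 CPM on 31 UMIs in WT-labelled cells (1.23 [0.57, 1.92]). The type III gene Ifnl2 had 2.59 CPM in KO-labelled and 6.37 CPM in WT-labelled cells (-1.30 [-1.74, -0.87]), and Ifnl3 had 3.22 CPM in KO-labelled and 5.62 CPM in WT-labelled cells (-0.80 [-1.22, -0.40]). The type I gene and the type III genes thus differed in direction.

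**Figure D5:**
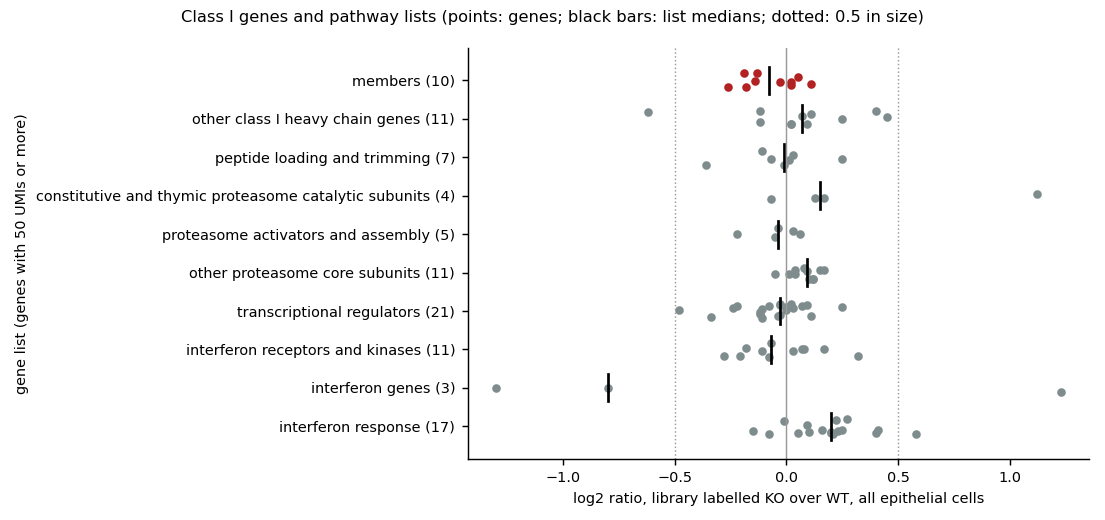
Log2 ratio of KO-labelled over WT-labelled levels over all epithelial cells (horizontal axis) for the 10 class I genes (red) and 9 lists of related genes (grey, number of genes with 50 UMIs or more in brackets). Points are genes, black bars list medians and dotted lines mark 0.5 in size. The 10 class I genes lie between -0.26 and 0.11, and the median of the interferon response genes is 0.20.

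In Aire-stage cells, 11 of 17 interferon response genes were higher on the KO-labelled side, and Rsad2 (0.95), Ifit3 (0.90), Ifit2 (0.62) and Bst2 (0.52) were past the fold. Ifnb1 had 7.67 CPM there in KO-labelled and 2.76 CPM in WT-labelled cells (1.47), and Ifnl2 (-1.13) and Ifnl3 (-0.56) were lower. Of the 21 regulators, 19 were lower, where 54.5% of all genes measured were lower and 20.2% past the fold, with Nfya (-0.85) and Stat2 (-0.59) past the fold. Among the heavy chains H2-Q10 had -0.62 and Mr1, which presents vitamin metabolites, 0.56. Nlrc5 had -0.38 in the same cells.

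In Ccl21a cells 13 of 17 interferon response genes were lower on the KO-labelled side, with 0 past the fold and a median of -0.19. Over all genes measured there, 15.0% were past the fold and 50.8% were lower. There all 11 proteasome core genes were higher, with a median of 0.32 and Psma2 past the fold (0.52). The heavy chains H2-Q10 (0.55) and H2-M3 (0.53) were higher, and the regulators Rela (-0.57) and Nfya (-0.54) lower. The part of the mixture of clusters, given above, in these counts was not tested.

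In tuft-like cells, the heavy chain genes Cd1d1 (0.88), which presents lipids, and H2-M2 (0.79) were higher on the KO-labelled side, and H2-Q10 and H2-M3 (-0.53 each) were lower. Psmb2 (0.52) and Psma5 (0.50) were past the fold among 11 core proteasome genes, of which 10 were higher. Over all genes measured there, 14.5% were past the fold and 50.1% were lower. Gbp2 (-0.94), Ciita (-0.84), Ifngr1 (-0.62) and Ifit3 (-0.55) were past the fold on the lower side, next to Tap1.

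Psmb10, whose nearest genes were those of the class II route, was set beside them between the libraries. In Aire-stage cells Psmb10 had a ratio of -0.19 [-0.26, -0.12]. There the class II chain gene H2-Eb1 had 4497 CPM in KO-labelled and 4799 CPM in WT-labelled cells, and H2-Aa 4187 CPM in KO-labelled and 4659 CPM in WT-labelled cells. Cd74, the class II chaperone, had 13961 CPM in KO-labelled and 13936 CPM in WT-labelled cells. In cluster 7, where Psmb10 was past the fold on the higher side, H2-Eb1 had 1343 CPM in KO-labelled and 1442 CPM in WT-labelled cells, and H2-Aa 1075 CPM in KO-labelled and 1258 CPM in WT-labelled cells. Cd74 had 3966 CPM in KO-labelled and 4007 CPM in WT-labelled cells of that cluster.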

How the data were processed

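The authors deposited UMI counts per gene and barcode for 2 libraries. Per the file headers, Cell Ranger 7.0.1 wrote them. Seurat and mm10 are named as well, per the submitters' processing notes. Whether intronic reads were counted is not given in the sources used here. Values were taken as deposited.

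Barcodes under 500 genes or 1000 UMIs, or over 10% mitochondrial UMIs, were dropped. Python 3.11.15 with scanpy 1.11.5, leidenalg 0.10.2, scikit-learn 1.9.0 and scipy 1.17.1 was used: 3000 variable genes without the members, 30 components, 15 neighbours, resolution 1, giving 23 clusters. Clusters were named from marker lists, with naming thresholds set after the clusters had been seen. Scrublet called 0 doublets in both libraries and so did not work; no cell was removed as a doublet. The libraries hold 25233944 UMIs in 4277 KO-labelled barcodes and 33120715 UMIs in 4957 WT-labelled barcodes. UMIs were summed by type and library and scaled to CPM, with exact Poisson intervals for levels, conditional binomial intervals for ratios and Clopper-Pearson intervals for shares. Members and lists were chosen with earlier results of these data known. Named are the 10 genes, list genes past the fold in the comparisons printed, the 10 genes nearest the mean profile and 3 nearest each member. The ratio and its interval were tested on simulated counts. Alternatives changed the cell filter, weighting, scaling, mixture, resolution, clustering genes and naming. H2-T10 and Mx1 were not analysed here. The types with fewer than 50 cells on a side were not compared.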

Additional observations from a re-analysis of the deposited data

Results flagged for a closer look

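Tapbp and Psmb10 were past the fold in opposite directions in different clusters, and the differences between the clusters were not tested. Tapbp had a ratio of -0.56 in cluster 4 and 0.93 in cluster 11. Psmb10 had a ratio of -0.78 in cluster 4 and 0.50 in cluster 7. Clusters 4 and 11 are low in RNA, with medians of 1690.5 UMIs in KO-labelled and 1922.5 in WT-labelled cells of cluster 4, and 2159.5 UMIs in KO-labelled and 1805 in WT-labelled cells of cluster 11.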

How the results depend on the processing

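No test was made, and a call here is a ratio past the fold. The members' calls in the named types kept their sign in every alternative run, but calls ended, as counted below. The 4 calls in clusters 4, 7 and 11 and those of list genes were not run under the alternatives. The median over the members stayed between the medians of their interval bounds in 68 of 70 cases, and with types taken from markers in each cell it was -0.12 in Aire-stage cells (-0.09 as reported) and -0.03 in Ccl21a cells (0.12 as reported). Of 692 member ratios under an alternative, 627 stayed within their counting interval and 65 moved out of it. Over all epithelial cells Nlrc5 ranged from -0.41 with the types weighted alike to -0.10 with each cell weighted alike, and Tap1 from -0.26 with the types weighted alike to -0.05 with each cell weighted alike. Tap2 ranged from -0.19 to 0.04, Tapbp from -0.18 to -0.11, Psmb8 from -0.07 to 0.10, Psmb9 from 0.00 to 0.15, Psmb10 from -0.19 to -0.03, B2m from -0.25 to -0.13, H2-D1 from 0.01 to 0.08 and H2-K1 from -0.04 to -0.00. Tap1 in tuft-like cells was past the fold in 8 of 9 alternatives, Tap2 in microfold-like cells in 8 of 8, Nlrc5 in cycling cells in 6 of 8 (-0.29 with markers in each cell) and Tap2 in keratinocyte-like cells in 3 of 6. Another scaling moved the median of all genes by at most -0.07 (keratinocyte-like cells). The low-RNA clusters and the equal mixtures of clusters were added after seeing the data. Keratinocyte-like cells under the stricter filter and without high doublet scores, and gut- and liver-like cells under the stricter filter, had under 50 cells on a side and gave no value. No paired analysis was possible because each group has 1 library. Depth limits the small types, where a gene near 50 UMIs has an interval wider than the fold.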

Other observations

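In cluster 7, led by Bpifa1 and Ltf, 15 of 16 measured interferon response genes were higher on the KO-labelled side, 7 of them past the fold, with a median of 0.46 against -0.02 over all genes there, of which 19.7% were past the fold. They were Ifi44 (1.17), Cxcl9 (0.96), Gbp7 (0.87), Bst2 (0.83), Gbp3 (0.80), Oas1a (0.74) and Isg15 (0.61). Ifi44 had 133 CPM in KO-labelled and 59.2 CPM in WT-labelled cells of the cluster. The median of the 10 class I genes in the same cells was 0.02, with 5 higher and 5 lower. Most interferon response genes were higher too in cluster 11 (7 of 7), cycling (7 of 10) and gut- and liver-like cells (6 of 10). Past the fold were Isg15, Oasl2 and Cxcl9 in cluster 11 (27.1% of all genes) and Isg15 in keratinocyte-like cells (27.4%). In cycling cells (18.9%) they were Ifi44, Ifit1, Isg15, Bst2 and, lower, Irgm1. In gut- and liver-like cells (26.1%) they were Gbp2, Usp18, Bst2, Cxcl9 and, lower, Cxcl10. Most were lower in Ccl21a (13 of 17), neuroendocrine-like (10 of 15) and microfold-like cells (6 of 7) and cluster 4 (11 of 13). The split was near even in tuft-like cells (9 of 16 lower) and cluster 2 (9 of 17 lower). Endothelial cells, left out of the epithelial comparison (256 KO-labelled and 94 WT-labelled cells), had 2998 CPM of H2-K1 in KO-labelled and 3014 CPM in WT-labelled cells. B2m had 3045 CPM in KO-labelled and 3448 CPM in WT-labelled endothelial cells (-0.18 [-0.24, -0.11]), close to the value over all epithelial cells (-0.19).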
